A study of Mus musculus with 35 samples.

Results

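The genes examined were 33 sarcomere and skeletal muscle genes, taken by name from a table of 55421 genes counted in interscapular brown adipose tissue (iBAT) of 35 mice. The list holds the myosins and other thick filament genes, the actin, troponins and nebulin of the thin filament, Z-disc and intermediate filament genes, the genes of calcium release and uptake, and the genes of oxygen and energy supply in muscle. Members were taken by gene name and not by a measured value, but the list was chosen with earlier results of these data known. Each of the 33 genes had counts in most mice, with Cacna1s, the scarcest, at 0 counts in 7 of 35. Transcripts of the 33 genes made up between 0.00986% and 0.276% of the counts of a mouse.

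The mice were male C57BL/6J animals of 9 to 10 weeks, with 5 in each group. Controls were kept at room temperature (RT, 24 °C), and the other groups were housed singly at 6 °C for 6 hours or for 1, 2, 3, 4 or 5 days, in static cages without nesting material. A single iBAT pad of each mouse was trimmed of white fat before RNA was isolated, and each library is 1 mouse. Libraries were sequenced from the 3′ ends of transcripts and held 3846016 to 6047247 counts, so that 1 count was between 0.165 and 0.26 per 1000000 counts of a library. Levels are given as CPM, counts scaled to 1000000 after TMM adjustment of the library totals over the 35 mice.

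A sarcomere is the contractile unit of striated muscle, in which myosin thick filaments pull on actin thin filaments that are anchored at Z-discs. Calcium released through the ryanodine receptor acts on the troponin complex to start contraction, and the SERCA pump returns it to the sarcoplasmic reticulum. Brown adipocytes share a developmental origin with skeletal muscle and express some genes known from muscle, and the interscapular pads lie directly on back muscles.

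A few promoters are shown because their genes stood apart in the results, Acta1 and Mylpf as genes that moved together across mice and Des and Mb as genes with a weaker tie to Acta1. RefSeq starts were found for 26 of the 33 members, with 31 starts in all, and none was matched for Tnnt3, Trdn, Neb, Tcap, Actn3, Myoz1 or Tnni2. Each sequence is the 250 bases before a RefSeq start on GRCm38.p6, read 5′ to 3′ on the strand of the gene, with matches to CAGCTG (an E-box that myogenic factors such as MyoD can bind), the related E-box CACCTG, the TATA box (TATAAA), the nuclear receptor element AAGGTCA, the CArG box and the MEF2 motif in capitals where present.
Acta1, chr8:123894776-123895025, minus strand: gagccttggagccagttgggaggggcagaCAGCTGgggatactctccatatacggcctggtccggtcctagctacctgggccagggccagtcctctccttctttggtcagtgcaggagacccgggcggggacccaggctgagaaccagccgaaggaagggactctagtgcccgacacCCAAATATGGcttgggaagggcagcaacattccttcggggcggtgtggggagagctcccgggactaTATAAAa
Mylpf, chr7:127211358-127211607, plus strand: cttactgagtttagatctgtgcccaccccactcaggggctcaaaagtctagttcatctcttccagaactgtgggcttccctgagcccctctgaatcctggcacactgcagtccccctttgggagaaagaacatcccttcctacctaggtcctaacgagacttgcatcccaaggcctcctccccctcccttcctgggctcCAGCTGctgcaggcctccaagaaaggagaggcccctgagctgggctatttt
Des, chr1:75360042-75360291, plus strand: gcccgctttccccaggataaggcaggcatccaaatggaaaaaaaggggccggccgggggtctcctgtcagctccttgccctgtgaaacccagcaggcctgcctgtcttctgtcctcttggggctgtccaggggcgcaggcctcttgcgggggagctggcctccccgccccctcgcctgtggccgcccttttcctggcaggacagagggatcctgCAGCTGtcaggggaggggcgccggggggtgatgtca
Mb, chr15:77022788-77023037, minus strand: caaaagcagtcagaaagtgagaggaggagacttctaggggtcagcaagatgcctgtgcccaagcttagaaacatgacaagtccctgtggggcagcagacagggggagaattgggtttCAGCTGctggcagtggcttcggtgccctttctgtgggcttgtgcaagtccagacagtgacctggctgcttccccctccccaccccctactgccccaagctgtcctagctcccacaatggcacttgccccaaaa
Mb has 3 RefSeq starts, of which this is the middle one on the chromosome, and tags from 3′ ends do not show which start was used. CAGCTG, searched on both strands, was found 221 bases before the start of Acta1, 51 before that of Mylpf, 36 before that of Des and 133 before this start of Mb. It was present in 14 of the 31 member promoters (45.2%) and in 13% of all 32851 promoters of the same length. The MEF2 motif was in 19.4% of member promoters and 2.92% of all, the CArG box in 12.9% and 1.47%, TATAAA in 16.1% and 12.4%, CACCTG in 22.6% and 17.2%, and AAGGTCA in 0 of 31 and 4.08%. All 4 printed windows held the E-box, and a match describes letters only. Of the Mb starts not printed, the window at chr15:77050669-77050918 held no match and lies over coding exons of Apol6. The window at chr15:77022728-77022977 overlaps the printed one and holds the same CAGCTG, 193 bases before its start, so that site counts for both starts.

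The amount of muscle transcript differed widely between mice of the same group. Summed over the 33 genes, the level was 2420, 252, 1921, 1026 and 642.5 CPM in the 5 RT mice. It was 514, 1627, 1011, 434 and 99.2 CPM after 6 hours, and 1109, 270.5, 431, 559 and 2817 CPM after 1 day. After 2 days the values were 683, 971, 176, 849 and 922 CPM, after 3 days 1189, 406, 1411, 414 and 108.5 CPM, and after 4 days 997.5, 552, 696, 720 and 2136 CPM. The 5-day group was the narrowest, with 633, 714.5, 535, 485 and 619 CPM. The highest mouse stood 28.4-fold above the lowest, and every cold group overlapped the RT group. In such bulk tissue a smaller number of cells of one type and less RNA per cell cannot be told apart.

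**Figure D1:**
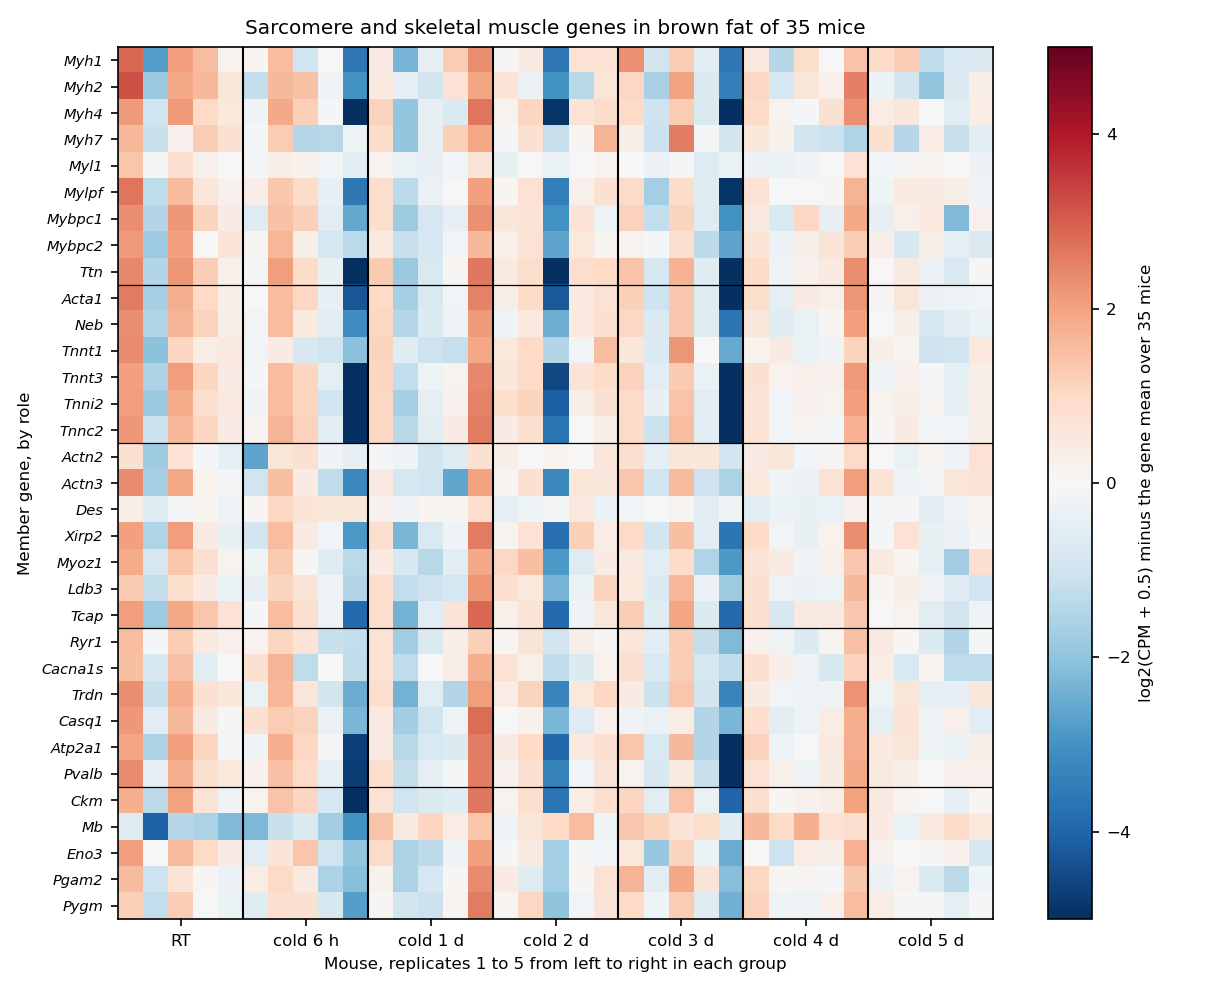
Level of each of the 33 member genes (rows, grouped by role) in each of the 35 mice (columns, 5 per group, replicates 1 to 5 from left to right), as log2(CPM + 0.5) minus the mean of the gene over all mice; red is higher and blue lower. Most rows change together from mouse to mouse inside a group, with cold 6 hours replicate 5, cold 2 days replicate 3 and cold 3 days replicate 5 blue in most rows, while the Mb row is blue in the RT and 6-hour mice and red in most later ones.

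Acta1, the actin of skeletal muscle thin filaments, shows the spread between mice most plainly. Its counts were 1437, 73, 744, 553 and 312 in the RT mice, and 173, 582, 421, 146 and 10 after 6 hours. They were 498, 61, 148, 160 and 1105 after 1 day, and 383, 369, 11, 243 and 262 after 2 days. After 3 days they were 454, 108, 660, 150 and 3, after 4 days 463, 192, 347, 271 and 1167, and after 5 days 223, 318, 170, 194 and 209. In CPM the highest mouse had 360-fold the level of the lowest, and single mice with few counts occurred at 6 hours, 2 days and 3 days beside group mates with far more. The biological coefficient of variation within groups, estimated by edgeR, had a median of 0.839 over the members and 0.1865 over all 12077 genes tested.

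The other members were compared with Acta1 across mice within durations, by removing each group's mean of log2 CPM and correlating what was left over the 35 mice. Pearson's r ran from 0.398 to 0.987 over the 32 members, with a median of 0.908, and 26 members had r over 0.8. Spearman's rho ran from 0.444 to 0.985. All 32 passed after Benjamini-Hochberg adjustment over the 32 relations, by r and by rho, in a two-sided permutation test that moved mice within durations 100000 times. The largest adjusted p was 0.036 for r and 0.016 for rho, and most members had the smallest p these permutations can give, 1e-05. With the 2 mice removed whose Acta1 level lay farthest from its median, cold 3 days replicate 5 and cold 6 hours replicate 5, the median r was 0.902. Over the 12044 other genes tested the median r was -0.01, and 23 of them had r over 0.8.

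Of the 13 fast fibre isoforms among the members, 10 had a log-log slope on Acta1 between 0.7 and 1.3, and Mybpc2 (0.592), Myoz1 (0.596) and Myl1 (0.139) lay below. Tnni2, the inhibitory subunit of fast troponin, had r = 0.987, with a log-log slope on Acta1 of 1.03 ± 0.032 (SE). Of other members, the slope was 1.16 ± 0.0417 for Ttn, the giant spring protein of the sarcomere, and 0.938 ± 0.0466 for Ckm, the muscle creatine kinase. Of the fast isoforms, it was 1.12 ± 0.0473 for Myh4, the IIb myosin heavy chain, and 1.00 ± 0.0347 for Atp2a1, the fast fibre SERCA pump. There were 193 to 293 Ttn counts per 100 Acta1 counts in the RT mice and 157 to 262 in the 5-day mice, and the lowest ratio, 30, was that of cold 6 hours replicate 5 with 3 Ttn counts. Over the 32 members, 17 had slopes between 0.7 and 1.3.

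A small number of members kept a level of their own where Acta1 was nearly gone. Myl1, an alkali myosin light chain, never fell under 207 counts and spanned 4.07-fold in CPM, with r = 0.672 and a slope of 0.139 ± 0.0294. Des, the intermediate filament protein desmin, which smooth muscle also makes, lay between 50 and 163 counts and had r = 0.398 and a slope of 0.0707 ± 0.0314. Actn2, a Z-disc actinin, had r = 0.512 and a slope of 0.225 ± 0.0728. In cold 3 days replicate 5, with 3 Acta1 counts, there were 207 counts of Myl1, 62 of Des, 11 of Actn2 and 93 of Mb. In cold 2 days replicate 3, with 11 Acta1 counts, there were 297, 92, 36 and 414. Mb, the oxygen-binding protein myoglobin, had r = 0.54, and its r fell to 0.34 (adjusted p = 0.13, permutation test) with the same 2 mice removed. Myh7, the slow fibre myosin heavy chain, had r = 0.518 at a median of 7 counts.

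**Figure D2:**
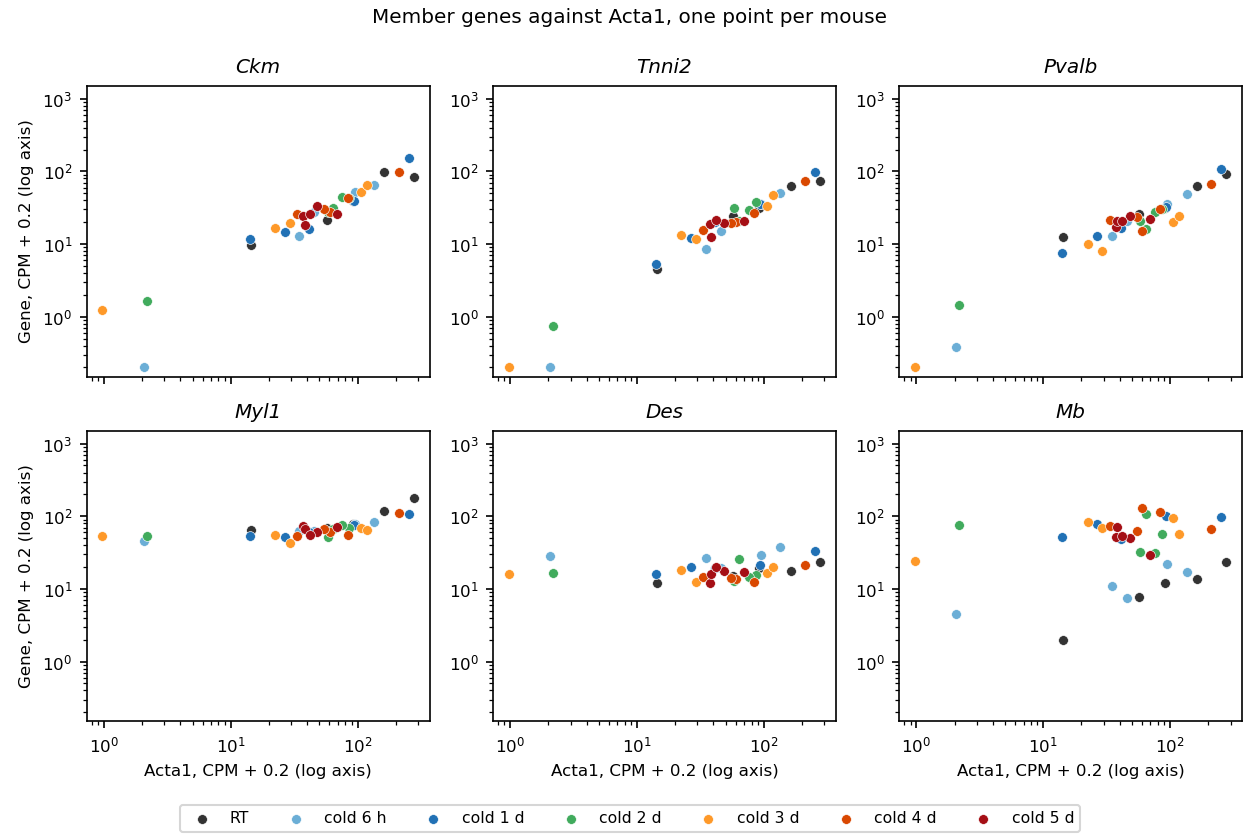
Level of 6 member genes against Acta1 in each of the 35 mice (CPM + 0.2, both axes logarithmic), coloured by duration of cold. Ckm and Tnni2 lie along a line whatever the duration, and Pvalb follows Acta1 closely but not equally at each duration. At equal Acta1 level Pvalb was lower than RT at 2 days (log2 fold change -0.49, adjusted p = 0.0334, edgeR) and at 3 days (-0.96, adjusted p = 0.000952). Myl1 and Des stay nearly flat down to the mice with the fewest Acta1 counts. Mb splits into RT and 6-hour mice below and later cold mice above.

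Duration accounted for little of the spread of most members. The share of the variance of log2 CPM that lay between the 7 groups had a median of 11% over the 33 members and 42.5% over all genes tested. It was 74.5% for Mb, 48.1% for Des and 27.5% for Myl1, and between 3.42% (Ldb3) and 19.7% (Pvalb) for the remaining 30. The SD within durations had a median of 1.52 log2 units for the members and 0.33 for all genes. In an F test over the 7 groups (edgeR's quasi-likelihood test with Benjamini-Hochberg adjustment over all genes), 3 of 33 members passed, against a background of 60.4% of all genes. The same 3 passed in DESeq2's likelihood ratio test. They were Mb (adjusted p = 6.71e-08), Des (adjusted p = 0.00118) and Myl1 (adjusted p = 0.0317). Myl1 did not pass the F test without RT replicate 1, RT replicate 3 or cold 3 days replicate 4, while Mb and Des passed whichever mouse was left out. With the Acta1 level of each mouse as a covariate 4 of 32 passed (background 60.3%). These were Mb (3.06e-09), Des (0.000228), Pgam2 (0.0107) and Pvalb (0.0132), all adjusted p of the same test, and Myl1 had an adjusted p of 0.0859.

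**Figure D3:**
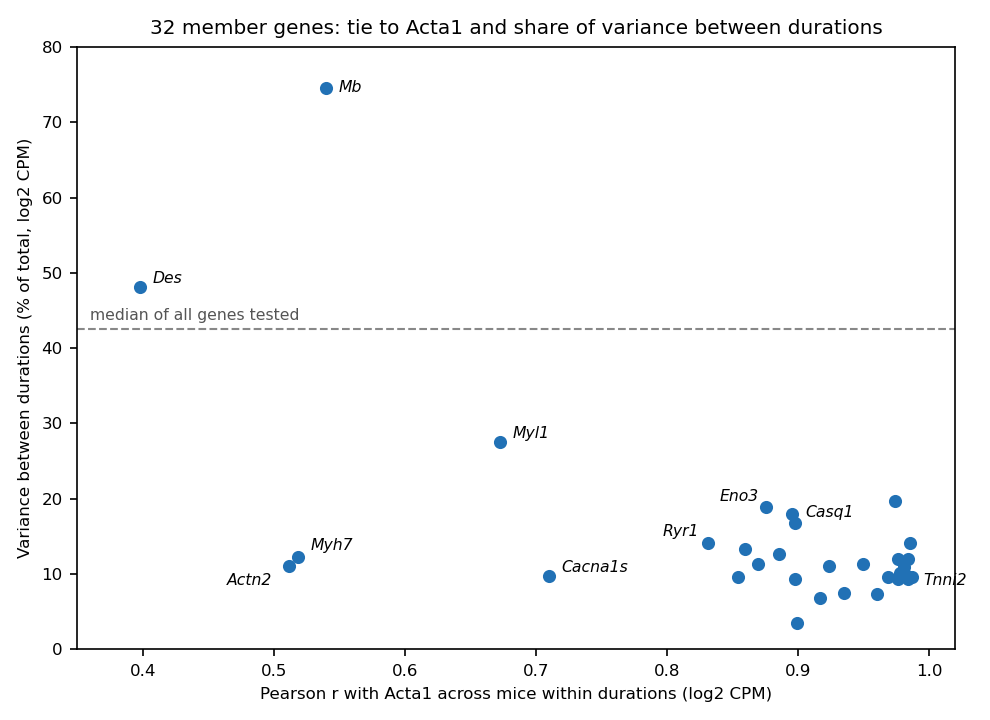
For each of 32 member genes, Pearson's r with Acta1 across mice within durations (horizontal axis) and the percentage of the variance of log2 CPM that lay between the 7 groups (vertical axis); the dashed line is the median of all genes tested. Most members sit at the lower right, with r over 0.8 and under 20% of variance between durations, while Mb and Des lie above the dashed line.

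Mb rose with cold and stayed up. Mb measured 23.6, 1.75, 13.5, 12.0 and 7.64 CPM in the RT mice and 7.36, 16.9, 21.97, 10.6 and 4.27 CPM after 6 hours. After 1 day the values were 101, 51.1, 78.1, 48.0 and 97.4 CPM, and after 2 days 32.3, 56.7, 74.6, 108 and 30.6 CPM. They were 94.6, 82.1, 57.5, 68.4 and 24.0 CPM after 3 days, 114, 72.2, 130, 61.9 and 67.2 CPM after 4 days, and 49.55, 28.9, 52.2, 69.9 and 52.9 CPM after 5 days. The RT and 6-hour mice overlapped, and every mouse from 1 day on lay above every RT mouse. The log2 fold change over RT was 0.04 ± 0.446 (SE, adjusted p = 0.955) at 6 hours by edgeR's quasi-likelihood test. It was 2.69 ± 0.375 (adjusted p = 3.59e-05) at 1 day, 2.36 ± 0.435 (0.000745) at 2 days, 2.49 ± 0.407 (0.000198) at 3 days, 2.93 ± 0.37 (1.23e-05) at 4 days and 2.11 ± 0.349 (0.000119) at 5 days. From 1 to 5 days it passed under every alternative run, with log2 fold changes between 1.84 and 3.345. The 6 comparisons share the same 5 RT mice.

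Set against Acta1, Mb also stood higher from 1 day on. There were 8.33 to 13.5 Mb counts per 100 Acta1 counts in the RT mice and 12.5 to 230 after 6 hours. From 1 day on the medians lay between 66.1 and 236 per 100. At equal Acta1 level the log2 fold change was 0.69 ± 0.252 (adjusted p = 0.0333, edgeR) at 6 hours, and 0.53 ± 0.31 (adjusted p = 0.178) with Ckm in place of Acta1. It was 3.10, 2.52, 3.095, 3.23 and 2.94 at 1, 2, 3, 4 and 5 days, each passing, and the difference between these values and those without the covariate was not tested. Exons of Mb (chr15:77015487-77050670 on GRCm38, minus strand) overlap exons of Apol6 on the opposite strand over 64 bases, 35.1 kb from the 3′ end of Mb, and the strand setting of the counting is not given in the sources used here. Apol6 moved the other way, from 26.9 to 32.7 CPM in the RT mice to 2.53 to 15.5 CPM in the cold mice. Its log2 fold changes were between -2.65 and -1.36, all passing, and the part of that overlap in the Mb counts was not tested.

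**Figure D4:**
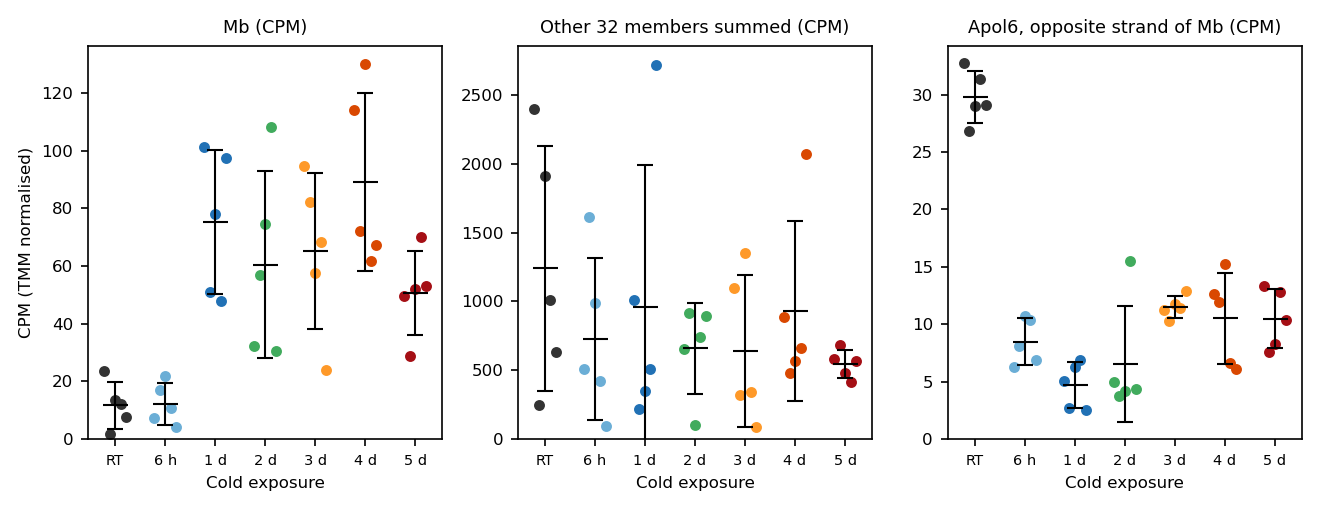
CPM in each mouse (points) with the mean and SD of each group of 5 (black bars), for Mb, for the other 32 members summed, and for Apol6, whose exons overlap Mb on the opposite strand; vertical axes are linear and start at 0. Mb is above all RT mice from 1 day on, the summed muscle level overlaps RT at every duration, and Apol6 is below all RT mice in every cold mouse.

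Des was higher after 6 hours and close to RT later. Its levels were 23.0, 11.7, 17.2, 19.3 and 14.9 CPM in the RT mice and 19.2, 37.8, 28.9, 26.7 and 27.9 CPM after 6 hours. Of the 6-hour mice, 4 of 5 lay above all RT mice, including replicate 5, which had 10 Acta1 counts. The log2 fold change was 0.69 ± 0.18 (adjusted p = 0.00524, edgeR), and at equal Acta1 level 0.81 ± 0.175 (adjusted p = 0.000984). At 1 day it was 0.33 ± 0.199 (adjusted p = 0.214), and 0.46 ± 0.131 (adjusted p = 0.011) at equal Acta1 level. In the later mice it ran from 12.0 to 33.2 CPM. From 2 to 5 days the log2 fold changes lay between -0.20 and -0.05 and did not pass. The antisense gene Gm15179 overlaps exons of Des (chr1:75360329-75368579 on GRCm38, plus strand) over 220 bases, 148 bases from its 3′ end, and was higher at all 6 durations, with log2 fold changes between 1.55 and 2.83. Of the smooth muscle and mural cell genes, 5 of 11 tested rose at 6 hours (21.5% of all genes) and 2 fell (21.0%). Those that rose were Mylk, the myosin light chain kinase (log2 fold change 2.17 ± 0.183, adjusted p = 5.7e-08, edgeR), Acta2, the smooth muscle actin (0.76 ± 0.148, adjusted p = 0.000487), Cnn1, Tagln and Smtn. Those that fell were Cspg4 (-1.27 ± 0.153, adjusted p = 3.81e-06) and Rgs5 (-0.40 ± 0.0916, adjusted p = 0.00184). Genes of this set were also higher later, when Des did not pass without the covariate. At 1, 2, 3 and 4 days 5 of 10, 5 of 11, 4 of 10 and 2 of 11 were higher (18.9%, 16.4%, 18.3% and 19.4% of all genes). At the same durations 2, 0, 0 and 1 were lower (17.8%, 14.7%, 15.5% and 18.6%). The part of smooth muscle cells or of the antisense gene in the Des value was not tested.

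Against RT, the members as a group lay lower at every duration, and few passed before 5 days. The medians of their log2 fold changes were -0.87, -0.38, -0.87, -0.90, -0.44 and -1.14 at 6 hours, 1, 2, 3, 4 and 5 days, beside medians between -0.03 and -0.01 over all genes. All these medians rest on the same 5 RT mice, whose summed levels ran from 252 to 2420 CPM. Most members also moved together across mice, so the medians are not separate results. At 6 hours 1 of 31 tested members was called higher (background 21.5%) and 2 lower (background 21.0%). These were Des (higher), Tnnt1, the slow troponin T (-1.84 ± 0.675, adjusted p = 0.0358) and Myl1 (-0.63 ± 0.23, adjusted p = 0.0364). At 1 day 1 of 31 was called higher (background 18.9%) and 0 lower (background 17.8%), with 2 members at an unadjusted p under 0.05 in either direction and also 0 lower by DESeq2. At 2 days 1 of 31 was higher (16.4%) and 3 were lower (14.7%), namely Myl1, Eno3, the muscle enolase (-1.49 ± 0.409, adjusted p = 0.0116), and Myh2, the IIa myosin heavy chain (-2.10 ± 0.708, adjusted p = 0.0335). At 3 days 1 of 31 was higher (18.3%) and 3 were lower (15.5%), namely Myl1 (-0.82 ± 0.23, adjusted p = 0.0117), Pvalb, the calcium buffer parvalbumin (-1.81 ± 0.553, adjusted p = 0.0184), and Casq1, the calcium store protein calsequestrin (-1.82 ± 0.638, adjusted p = 0.0365). At 4 days 1 of 32 was higher (19.4%) and 0 were lower (18.6%), with 3 members at an unadjusted p under 0.05 and 0 lower by DESeq2. The member called higher from 1 day on was Mb each time.

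These counts of lower calls rested on single mice. At 6 hours the count of 2 became 0 without RT replicate 1, RT replicate 3, or cold replicate 4 or 5. It became 1 without cold replicate 1, 4 without RT replicate 5, 7 without cold replicate 2 and 9 without RT replicate 2. At 1 day the count of 0 became 1 without RT replicate 2 and 7 without cold replicate 5. At 2 days the count of 3 became 1 without RT replicate 1, RT replicate 3, or cold replicate 2 or 3, and 11 without RT replicate 2. At 3 days the count of 3 became 1 without RT replicate 1, 5 without RT replicate 2 and 8 without cold replicate 3. At 4 days the count of 0 became 1 without cold replicate 1, 3 without RT replicate 2 and 4 without cold replicate 5. Scaled by library size only, the calls were 1 higher and 4 lower at 6 hours, 1 and 1 at 1 day, 1 and 6 at 2 days, and 1 and 1 at 4 days. That scaling moved the median of all genes to between -0.25 and -0.15.

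After 5 days 15 of 30 tested members were called lower (background 18.6%) and 1 higher (background 20.2%). The lower members were 6 of the 9 thick filament genes, Ttn (-1.515 ± 0.45), Myh2 (-2.50 ± 0.618), Myh4 (-1.15 ± 0.385), Myl1 (-0.63 ± 0.211), Mybpc1 (-1.62 ± 0.553) and Mybpc2 (-1.54 ± 0.575). On the thin filament they were Acta1 (-1.36 ± 0.458), Neb (-1.52 ± 0.434), Tnnt3 (-1.325 ± 0.412) and Tnnc2 (-1.10 ± 0.365). The others were Tcap at the Z-disc (-1.67 ± 0.455), Ryr1, Trdn and Pvalb of calcium handling (-1.14 ± 0.375, -1.26 ± 0.461 and -1.11 ± 0.354), and Eno3 (-1.30 ± 0.338). Adjusted p lay between 0.00376 and 0.041 (edgeR), and the 5-day and RT mice overlapped for each of the 15 genes. Of the members that did not pass, Myh1, Mylpf, Tnni2, Ckm, Atp2a1, Casq1, Tnnt1, Xirp2, Myoz1, Actn3, Ldb3 and Pygm had log2 fold changes between -1.48 and -0.49, Des -0.08 and Actn2 0.03. Acta1 fell from a mean of 121 to 46.9 ± 13.2 CPM (SD, n = 5), beside an SD of 103.5 CPM among the RT mice. The lower count was 5 without RT replicate 1 and 5 without RT replicate 3, the RT mice with the most muscle transcript. It was 27 without RT replicate 2, the RT mouse with the least, and 8 without cold replicate 4. In a single fit over all 7 groups 2 members were called lower at 5 days, and by DESeq2 8.

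At equal Acta1 level most of these calls were gone. At 5 days 1 of 29 members was lower, Eno3 (-0.69 ± 0.251, adjusted p = 0.0385, edgeR), and 1 higher, Mb (background 37.0% in either direction). Eno3 was lower also at 2 days (-0.91 ± 0.211, adjusted p = 0.00481), as was Pvalb (-0.49 ± 0.162, adjusted p = 0.0334), among 30 tested (background 28.9%). At 3 days Pvalb was lower (-0.96 ± 0.193, adjusted p = 0.000952) and 4 members were higher (background 32.6%). Beside Mb these were Pgam2, the muscle phosphoglycerate mutase (1.55 ± 0.331, adjusted p = 0.0016), Pygm, the muscle glycogen phosphorylase (0.62 ± 0.201, adjusted p = 0.0244), and Actn2 (0.84 ± 0.289, adjusted p = 0.0323). At 4 days Actn2 was higher (0.66 ± 0.254, adjusted p = 0.0484) and Myl1 lower (-0.44 ± 0.14, adjusted p = 0.019), with a background of 38.6%. At 6 hours and at 1 day 2 members were called, Mb and Des, both higher (backgrounds 41.9% and 36.0%). With Ckm as the covariate Pgam2 was higher at 3 days (1.18 ± 0.355, adjusted p = 0.0164). Actn2 (adjusted p = 0.0602 at 3 days and 0.0708 at 4 days) and Pygm (0.0765 at 3 days) did not pass there. With Ckm 6 members were lower at 3 days, 5 at 4 days and 3 at 5 days, beside 3, 0 and 15 with no covariate. Those lower at 5 days were Myh2, Tcap and Eno3. The counts of lower calls thus depended on the gene used as covariate. A member whose slope on Acta1 is under 1, such as Myl1 or Actn2, is adjusted by its own fitted slope in this model.

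**Figure D5:**
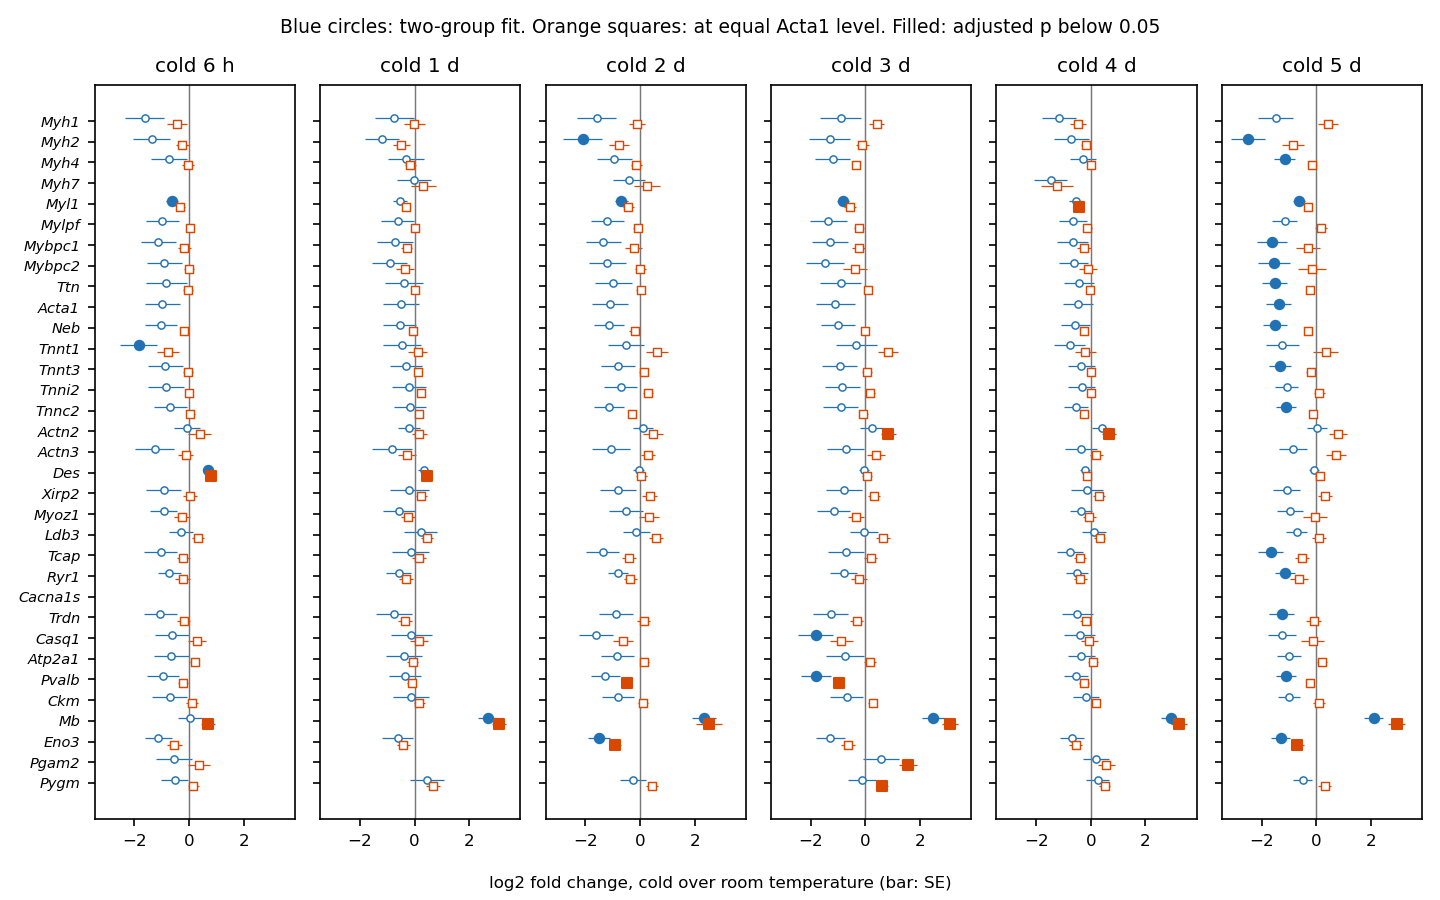
Log2 fold change of each member over RT at each duration with its SE, from the fit of 5 cold and 5 RT mice (blue circles) and from the same fit with Acta1 as a covariate (orange squares); filled symbols had an adjusted p below 0.05 and members absent from a panel were not tested there. Blue points lie mostly left of 0 with wide bars, orange points close to 0 with narrow bars, and Mb lies right of 0 in both from 1 day on.

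Among thick filament genes, Myh4 supplied most of the myosin heavy chain counts. Of the counts of Myh4, Myh1, Myh2 and Myh7 together, Myh4 took 80.4% ± 8.14 (SD, n = 32 mice with at least 50 such counts). Myh1, the IIx chain, took 9.27% ± 5.28, Myh2 8.14% ± 4.5 and Myh7 2.18% ± 1.74. In the RT mice Myh4 took 68.1% to 93.1% and in the 5-day mice 77.3% to 90.9%, so the ranges overlapped. Myh1, Myh2 and Myh4 are neighbours on chromosome 11 with related sequences. How reads that match more than 1 of them were counted was not examined, so these shares are uncertain. Mylpf, the fast regulatory light chain, followed Acta1 with r = 0.9855 and ran from 0 to 492 counts, and the myosin binding proteins Mybpc1 and Mybpc2 had r of 0.924 and 0.886.

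On the thin filament beside Acta1, r ran from 0.854 to 0.987. Tnnt3, Tnni2 and Tnnc2, the 3 subunits of fast troponin, had r with Acta1 of 0.981, 0.987 and 0.984, and Neb, the ruler protein nebulin, 0.977. Tnnt1, the slow troponin T, had r = 0.854 at a median of 12 counts. At 6 hours it had a log2 fold change of -0.77 (adjusted p = 0.147, edgeR) at equal Acta1 level and did not pass there. In cold 3 days replicate 5, Tnnt3, Tnni2, Tnnc2 and Tnnt1 were all at 0 counts, which allows up to 3 counts.

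Z-disc genes were less uniform. Tcap, the titin cap telethonin, had r = 0.977 and Xirp2, an actin-binding repeat protein, 0.96. Actn3, the fast fibre actinin, had r = 0.869, Myoz1, a calcineurin-binding Z-disc protein, 0.859, and Ldb3, a PDZ-LIM protein of the Z-disc, 0.899. Ldb3 had the lowest share of variance between durations of all members. Actn2 lay beside them with its slope of 0.225 and reached 2 counts in 1 mouse, cold 6 hours replicate 1, where Acta1 had 173.

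Of the calcium genes, Atp2a1 and Pvalb, both of fast fibres, had r of 0.984 and 0.974. Trdn, the triadin that links the release channel to calsequestrin, had 0.9495, Casq1 0.897 and Ryr1, the release channel itself, 0.8315. Cacna1s, the voltage sensor of the T-tubule, had at most 16 counts in a mouse, was not tested in any pairwise comparison and had r = 0.71. Pvalb measured 93.3, 12.3, 62.6, 31.0 and 25.8 CPM in the RT mice and 20.1, 9.88, 24.1, 7.92 and 0 CPM after 3 days. Per 100 Acta1 counts it ranged from 33.5 to 86.3 in the RT mice and from 0 to 44.4 after 3 days, with medians of 38.6 and 20.5. The ranges overlapped.

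Among the energy genes, Ckm, Pygm, Pgam2 and Eno3 had r with Acta1 of 0.968, 0.935, 0.898 and 0.875, and Mb stood apart from them. Pgam2 counts in the 3-day mice were 28, 5, 44, 15 and 0, beside 31, 3, 14, 11 and 7 in the RT mice. Per 100 Acta1 counts these were 0 to 10 with a median of 6.17, and 1.88 to 4.11 with a median of 2.16. Pgam2 was too scarce to be tested at 1, 2 and 5 days.

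The genes outside the list that followed Acta1 most closely included many muscle genes. The 20 with the highest r within durations, chosen by that value and given as a description, were Cox6a2 (0.964), Smpx (0.928), Ank1, Myot, Tpm2, Eef1a2, Hrc, Myom2, Klhl31, Mylk4, Hspb6, Usp13, Ckmt2, Cryab, Hfe2, Apobec2, H19, Tpm1, Nctc1 and Cmya5 (0.814). Cox6a2 encodes the muscle form of a cytochrome oxidase subunit, and Tpm1 and Tpm2 encode tropomyosins. Of the 20, 11 were on the list of other skeletal muscle genes, which was also chosen with earlier results of these data known.

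In that list of 44 genes, 0 of 24 tested were higher at 6 hours (21.5% of all genes) and 1 of 24 at 1 day (18.9%). It was 1 of 23 at 2 days (16.4%), 1 of 26 at 3 days (18.3%) and 1 of 26 at 4 days (19.4%). That gene was Srl, the sarcoplasmic reticulum protein sarcalumenin, which was also called higher at 5 days (20.2%). Its means were 16.3 ± 3.76 CPM (SD, n = 5) at RT and 33.1 ± 6.04 CPM after 1 day (log2 fold change 1.03 ± 0.163, adjusted p = 0.00012, edgeR). At 5 days the value was 1.05 ± 0.17 (adjusted p = 9.61e-05). In the other direction 4 of 24 tested were lower at 6 hours (21.0% of all genes), 2 of 24 at 1 day (17.8%) and 2 of 23 at 2 days (14.7%). It was 3 of 26 at 3 days (15.5%), 3 of 26 at 4 days (18.6%) and 6 of 17 at 5 days (18.6%). Pfkm, the muscle phosphofructokinase, was among them at every duration, with -1.05 ± 0.178 (adjusted p = 0.000142) at 6 hours and -0.68 ± 0.195 (adjusted p = 0.00997) at 5 days. Its level in the RT mice was 30.4 ± 6.79 CPM (SD, n = 5). Neither Srl nor Pfkm was among the 20 genes closest to Acta1, and the part of muscle fibres in their levels was not tested.

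Factors of muscle stem cells and myoblasts had few counts. Pax7, the satellite cell factor, was at 0 counts in 33 of 35 mice, Myf5 in 33, Myod1 in 23 and Myog in 21, and none of the 4 exceeded 10 counts. Of the myosins of forming fibres, Myh3, the embryonic chain, was at 0 in 31 mice with at most 15 counts. Myh8, the perinatal chain, was at 0 in 6 mice and reached 63 counts. The slow and cardiac fibre genes outside the list summed to 4.48 to 44.9 CPM in the RT mice and 8.39 to 13.5 CPM in the 5-day mice. Of those tested, 1 of 3 was lower at 6 hours (21.0% of all genes) and 1 of 2 at 5 days (18.6%). Both times it was Casq2, the cardiac calsequestrin, at -1.998 ± 0.401 (adjusted p = 0.000646, edgeR) and -2.08 ± 0.461 (adjusted p = 0.00165). At 1, 2, 3 and 4 days 0 of 3, 0 of 5, 0 of 5 and 0 of 4 were lower (17.8%, 14.7%, 15.5% and 18.6%), and 0 were higher. Brown adipocyte genes, 14 in all, summed to 14246 to 17991 CPM in the RT mice, and their median r with Acta1 within durations was -0.12. At 6 hours 4 of these 14 genes were higher (21.5% of all genes), namely Dio2, Elovl3, Ucp1 and Zic1. Ppara, Ebf2 and Adipoq, 3 of 14, were lower (21.0%). Ucp1, the uncoupling protein of brown fat, rose from 1921 ± 614 CPM (SD, n = 5) to 7265 ± 1041 CPM at 6 hours (log2 fold change 1.90 ± 0.172, adjusted p = 1.24e-07, edgeR). Adipoq fell from 901 ± 91.4 CPM to 691 ± 66.5 CPM. For the 12 smooth muscle and mural cell genes tested the median r with Acta1 was 0.06.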

How the data were processed

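RNA of 1 iBAT pad from each of 35 mice was sequenced from transcript 3′ ends. Per the methods of the study, the authors aligned reads with STAR 2.6.1d to GRCm38 and counted them per gene with HTSeq 0.11.2, and the deposited values are raw counts (3846016 to 6047247 per mouse), which limit the precision of scarce members. The strand setting of the counting is not given in the sources used here. Groups came from the sample labels, and nothing pairs mice of different groups. The members and gene lists were chosen with earlier results of these data known. All 33 members were to be named, and other genes only where called or among the 20 most correlated with Acta1.

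Each duration was compared with RT by edgeR 4.0.16's quasi-likelihood test in R 4.3.3, with TMM scaling, genes filtered by filterByExpr (minimum count 10) and Benjamini-Hochberg adjustment over all genes tested, called at an adjusted p below 0.05. An F test covered the 7 groups. The same tests were run with log2 CPM (prior count 2) of Acta1 or Ckm as a covariate. CPM in the text are counts scaled to 1000000 of the TMM-adjusted library total. Correlations and variance shares used log2 CPM (prior count 2, TMM) in Python 3.11.15 with numpy 2.4.6, pandas 2.3.3 and scipy 1.17.1, with 100000 permutations within durations. Alternatives were DESeq2 1.42.0, other scalings, no filter, all groups in a single fit, a block for the replicate number, and fits that omitted each mouse in turn. The scripts were tested on simulated data.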

Additional observations from a re-analysis of the deposited data

Results flagged for a closer look

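A value was singled out where the highest or lowest of 5 mice lay apart from its group by more than 0.71 of the whole range of that group (Dixon's criterion on log2 CPM with a prior count of 2, and for the sum of all members on log2 CPM; values are given in CPM), which chance alone meets in about 1 of 20 groups. Most such values came from 1 mouse, cold 2 days replicate 3, which was the lowest of its group in the sum of all members (176 CPM). It was lowest also in Ttn (2.7 CPM), Acta1 (1.98 CPM), Myh4 (1.08 CPM), Mylpf (0.901 CPM), Tnnt3 (0.721 CPM), Tnni2 (0.541 CPM) and Xirp2 (0.18 CPM). Ckm stood at 1.44 CPM there, and Tnnc2, Atp2a1, Pvalb and Eno3 at 1.26 CPM each. Actn3, Myh1, Mybpc1, Mybpc2, Trdn and Tcap had 0 CPM in this mouse.

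Cold 6 hours replicate 5 was the lowest of its group in Ttn (0.557 CPM), Myh4 (0.186 CPM) and Tnnt3 (0 CPM). Cold 3 days replicate 5 was the lowest in Tnnt3 (0 CPM) and Pvalb (0 CPM). Cold 5 days replicate 4 was the lowest in Tnni2 (12.2 CPM) and cold 5 days replicate 5 in Eno3 (2.8 CPM). In the other direction, cold 4 days replicate 5 was the highest of its group in Trdn (22.8 CPM). The cause was not tested.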

How the results depend on the processing

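The count of members called lower moved with the processing. No fold change that passed without a covariate changed sign under the alternatives run. Of 180 fold changes of members, called or not, 68 had the other sign with Acta1 as a covariate and 31 with Ckm. Of 108 alternative counts other than leaving out a mouse, 73 stayed within 1.5 times the value reported. With DESeq2's Wald test 0, 1 and 8 members were lower at 6 hours, 3 days and 5 days. Scaled by library size only, 4, 1, 6 and 1 were lower at 6 hours, 1, 2 and 4 days. In a single fit of all 7 groups 1 was lower at 6 hours and 2 at 5 days. Without the filter on low counts 25, 13, 23, 24, 14 and 27 were lower at 6 hours, 1, 2, 3, 4 and 5 days, 2 were higher at 1 day, and 31 members passed the F test. In that fit at 5 days the prior degrees of freedom were infinite, against 10.16 with the filter, and the quasi-dispersion of Acta1 was 0.751 in place of 10.4.

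With Acta1 as a covariate 0, 1, 1 and 1 were lower at 6 hours, 3, 4 and 5 days, and 2, 2, 4 and 2 higher at 6 hours, 1, 3 and 4 days. With Ckm 0, 1, 6, 5 and 3 were lower at 6 hours, 1, 3, 4 and 5 days, and 2 higher at 1 and at 3 days. With a replicate block 1, 15 and 9 were lower at 2, 3 and 5 days, and 2, 0 and 0 at 6 hours, 1 day and 4 days, and 2 members, Mb and Des, passed the F test. The numbers do not pair the mice: of 30 pairs with 1 number, 3 had deviations that correlated over 0.1, with r from -0.19 to 0.14, and 6 correlated best with their own number.

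Leaving out 1 mouse, the lower counts ranged from 0 to 9 at 6 hours, 0 to 7 at 1 day, 1 to 11 at 2 days, 1 to 8 at 3 days, 0 to 4 at 4 days and 5 to 27 at 5 days. The higher count stayed 1 each time, the F test called 2 to 4 members, and the median share of variance between durations was 9.32% to 16.7%. Of 290 single-gene fold changes so recomputed, 223 stayed past the threshold. Mb at 6 hours had a log2 fold change of -0.15 when scaled by library size only and did not pass in either direction.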
